A study of Mus musculus with 6 samples.

Results

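The Nr4a nuclear receptors are a family of 3 genes, Nr4a1 (Nur77), Nr4a2 (Nurr1) and Nr4a3 (Nor1), and they were examined in mouse haematopoietic stem cells (HSCs). Members were the array probe sets whose single gene symbol in the platform's probe-to-gene table was one of these genes. This gave 10 of the 45037 probe sets tested, with 1 for Nr4a1, 6 for Nr4a2 and 3 for Nr4a3. A probe set is a group of short probes that together report 1 transcript.

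All mice carried SCL-tTA and H2B-GFP: a tetracycline-controlled transactivator (tTA-S2), expressed from the endogenous scl locus, drives histone H2B joined to green fluorescent protein (GFP), and doxycycline shuts it off. After 170 days of doxycycline, bone marrow cells were sorted as CD34-negative, Lin-negative, Sca1+, cKit+, CD150+ and CD48-negative. GFP-positive cells formed the label-retaining group (LRC, 3 samples) and GFP-negative cells the non-LRC group (3 samples). The label marks only cells in which the scl locus is active, and a GFP-negative cell need not have lost it through division, since it may not have been labelled at the start. The samples are called independent in the labels, without naming animals, so p-values measure the spread between these samples. The age of the mice and the number of mice behind each sample are not given in the sources used here.

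Nr4a receptors are transcription factors that need no known natural ligand: the ligand pocket is closed, and activity follows the amount of protein made. They are immediate early genes, transcribed within minutes of a stimulus through CREB, MEF2 and serum response factor, and their transcripts are short-lived. In blood-forming tissue they are known as brakes on the proliferation of HSCs, and loss of Nr4a1 and Nr4a3 together leads to myeloid leukaemia in mice.

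The promoters are shown because signals that raise cyclic AMP reach these genes through the cyclic AMP response element (CRE), whose core is TGACG. Each line gives the 250 bases before the annotated transcription start in RefSeq, build GRCm38.p6, 5′ to 3′ on the gene's own strand, with every TGACG and its reverse complement CGTCA in capitals. All 3 genes matched the promoter table. Nr4a1 lies at chr15:101266596-101266845 on the plus strand, Nr4a2 at chr2:57124004-57124253 on the minus strand and Nr4a3 at chr4:48045055-48045304 on the plus strand. The Nr4a1 window lies within the annotated span of its gene (chr15:101253902-101274795), and the Nr4a3 window overlaps the start of its own (chr4:48045078-48086447).
Nr4a1: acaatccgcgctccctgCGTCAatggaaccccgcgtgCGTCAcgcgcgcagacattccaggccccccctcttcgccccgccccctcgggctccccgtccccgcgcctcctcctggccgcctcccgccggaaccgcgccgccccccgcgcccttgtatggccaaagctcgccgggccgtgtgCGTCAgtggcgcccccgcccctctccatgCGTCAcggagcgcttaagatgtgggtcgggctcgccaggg
Nr4a2: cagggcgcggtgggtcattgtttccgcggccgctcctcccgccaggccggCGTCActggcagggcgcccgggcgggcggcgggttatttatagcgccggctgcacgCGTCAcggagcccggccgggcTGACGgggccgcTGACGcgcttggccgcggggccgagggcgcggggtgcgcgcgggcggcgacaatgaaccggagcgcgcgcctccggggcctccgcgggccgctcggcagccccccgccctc
Nr4a3: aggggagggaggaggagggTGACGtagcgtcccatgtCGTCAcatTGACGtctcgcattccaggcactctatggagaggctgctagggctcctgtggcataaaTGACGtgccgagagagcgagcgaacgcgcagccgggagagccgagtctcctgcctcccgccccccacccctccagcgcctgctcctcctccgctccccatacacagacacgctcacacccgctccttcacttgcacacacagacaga

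Each of the 3 windows held 4 such cores. Of 32851 mouse promoter windows of the same length, 17.8% held at least 1 core and 0.137% held at least 4. Among the 6582 windows at least as rich in G and C as that of Nr4a3 (63.6%), 0.38% held at least 4. In Nr4a1 the cores began 233, 213, 69 and 40 bases before the start. In Nr4a2 they began 200, 144, 123 and 111 bases before it, and in Nr4a3 231, 213, 205 and 147 bases before it. The whole palindrome TGACGTCA was in none of the 3 windows and in 1.55% of all windows. The NBRE motif AAAGGTCA, the site to which Nr4a monomers bind, was searched on both strands and was in none of the 3 windows and in 1.34% of all. The CArG box of serum response factor was in none of the 3 and in 1.47% of all. A match is a string of letters and not a measured binding site.

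Transcripts of Nr4a1 and Nr4a2 were well above the array medians in both HSC populations, and neither gene differed between LRC and non-LRC beyond the spread of the replicates. Values are log2 expression after RMA, so that 1 unit is a 2-fold change, and array medians lay between 4.33 and 4.39. Nr4a1, the one member with a single probe set (1416505_at), was at 9.65, 9.93 and 7.23 in LRC replicates 1, 2 and 3. It was at 9.37, 9.52 and 7.88 in non-LRC replicates 1, 2 and 3. The replicates numbered 1 and 2 were high in both populations, replicate 3 was the lowest of each, and the groups overlapped fully.

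For Nr4a1 the LRC mean was 8.94 ± 1.48 and the non-LRC mean 8.92 ± 0.90 (SD, 3 arrays each). The difference, LRC minus non-LRC, was 0.01 (SE 0.81), with a 95% interval of -1.95 to 1.98 and a limma adjusted p of 1. The within-group SD behind that interval, 1.23, was larger than that of 96.5% of all probe sets, whose median was 0.36. The sign of this difference changed when single arrays were left out, over a range of -0.50 to 0.87, so no direction is given.

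**Figure D1:**
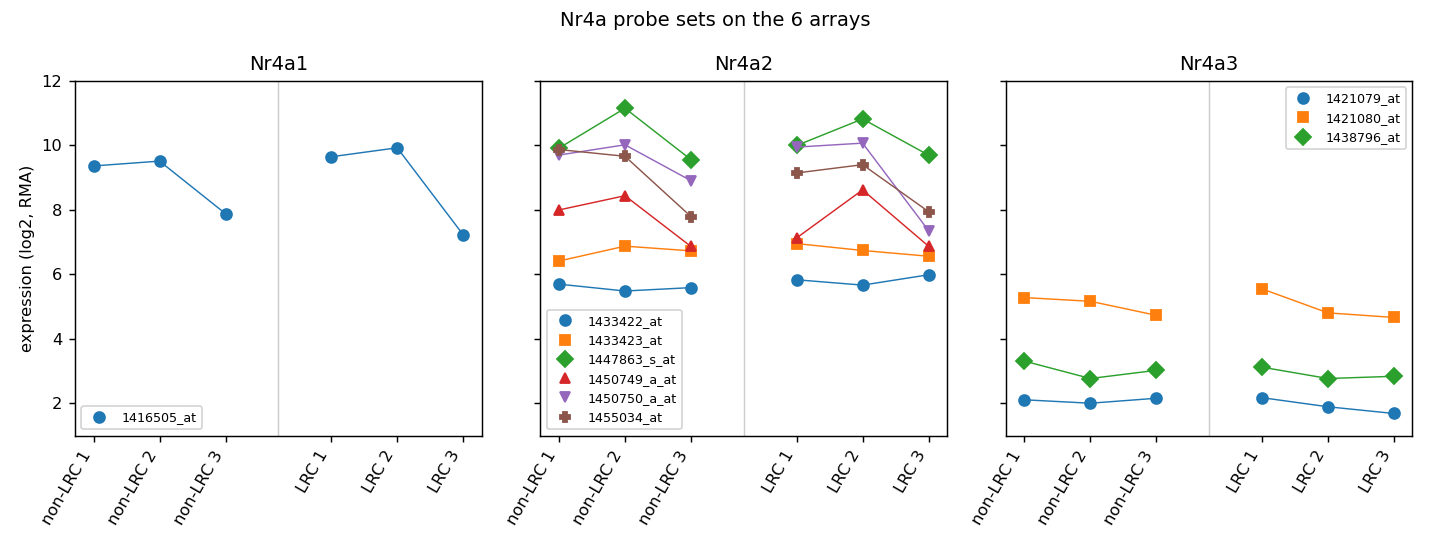
Log2 expression (y axis) of every Nr4a probe set on the 6 arrays (x axis), with 1 panel per gene and 1 marker per array; lines only join arrays of 1 group and imply no order. Nr4a1 and 4 of the 6 Nr4a2 probe sets are lowest on replicate 3 in both groups, and 2 of the 3 Nr4a3 probe sets stay at or below 3.31.

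Nr4a2 is best known for its part in the development of dopamine neurons, and in HSCs its overexpression restrains cell division. Its 6 probe sets comprised a variable set of 4 and a steady pair. Probe set 1450750_a_at, one of a pair made to the RefSeq transcript NM_013613, was at 9.95, 10.07 and 7.36 in LRC replicates 1, 2 and 3. The same probe set was at 9.70, 10.02 and 8.91 in non-LRC. As for Nr4a1, replicate 3 was the lowest of each group and the ranges of the groups overlapped.

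The difference of this Nr4a2 probe set was -0.42 (SE 0.77, 95% interval -2.28 to 1.44, limma adjusted p = 0.998). Without LRC replicate 3 the same difference was 0.47, so its sign rests on 1 array. The other probe set of that transcript, 1450749_a_at, was at 7.13, 8.62 and 6.87 in LRC and at 8.0002, 8.44 and 6.87 in non-LRC. On this one LRC replicates 1 and 3 were both low and replicate 2 was high.

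The Nr4a2 probe set 1455034_at was at 9.15, 9.41 and 7.95 in LRC and at 9.87, 9.67 and 7.79 in non-LRC. Probe set 1447863_s_at, which had the highest mean of the 6 and whose suffix marks probes that may match more than 1 transcript, was at 9.92, 11.16 and 9.56 in non-LRC. In LRC it was at 10.82 and 9.70 on replicates 2 and 3, and replicate 1 lay 0.08 above non-LRC replicate 1. On both, replicate 3 was again the lowest array of each group. The differences of 1450749_a_at, 1455034_at and 1447863_s_at were -0.23 (SE 0.59), -0.28 (SE 0.66) and -0.04 (SE 0.50), none of which passed.

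The remaining Nr4a2 pair, 1433422_at and 1433423_at, is annotated to 1 complementary DNA, AK008679, and behaved otherwise. Its values stayed between 5.49 and 5.99 for 1433422_at and between 6.42 and 6.96 for 1433423_at over all 6 arrays. The first had a difference of 0.24 (SE 0.18, 95% interval -0.21 to 0.68) and the second of 0.08 (SE 0.21, 95% interval -0.44 to 0.60), neither of which passed. Their within-group SDs of 0.14 and 0.22 stood at percentiles 7.71 and 23.4 of all probe sets, against 81.5 to 95.5 for the other 4. Whether this pair reports the same transcripts as the other 4 was not tested.

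Nr4a3, the receptor whose joint loss with Nr4a1 is leukaemogenic, lay above the array medians (4.33 to 4.39) on only 1 of its 3 probe sets. Probe set 1421080_at was at 5.55, 4.81 and 4.67 in LRC and at 5.28, 5.17 and 4.73 in non-LRC. Replicate 1 was the highest and replicate 3 the lowest array of each group, and the groups overlapped. The LRC mean was 5.01 ± 0.48 and the non-LRC mean 5.06 ± 0.29 (SD, 3 arrays each). The difference was -0.05 (SE 0.30, 95% interval -0.78 to 0.68, limma adjusted p = 0.999).

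On 1421079_at Nr4a3 lay between 1.69 and 2.18, and on 1438796_at between 2.77 and 3.31, both below the array medians on every array. Their differences were -0.17 (SE 0.20) and -0.13 (SE 0.22). At such low signal a difference in transcript level may not be visible, and these probe sets give little information on Nr4a3. Because probe sets differ in how strongly they bind, the levels of the 3 receptors were not ranked against each other.

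Over the family, 0 of 10 probe sets passed the adjusted threshold of 0.05 in limma in either direction. The background was 0% of all probe sets called higher and 0% called lower in LRC, so that no gene on the array passed either. At an unadjusted p under 0.05 there were 0 of 10 Nr4a probe sets, beside 3.71% of all (1.74% higher and 1.97% lower in LRC). In 0 of 10 did all LRC values lie on 1 side of all non-LRC values, beside 8.28% of all. The LRC mean was higher for 3 probe sets and lower for 7. The precision is limited by the 3 arrays per group: the 95% intervals of Nr4a1 and of the 4 variable Nr4a2 probe sets all included every difference from -1.23 to 1.16 in this fit.

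**Figure D2:**
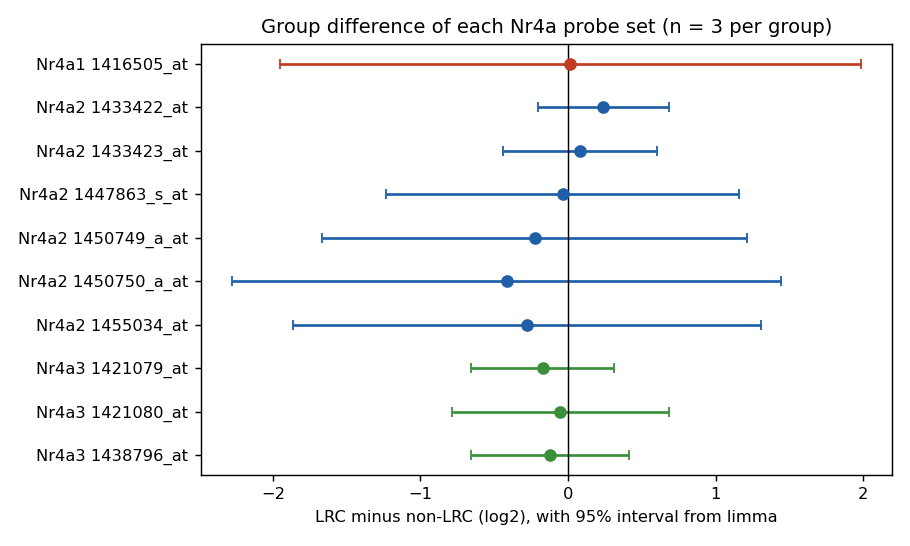
Difference of each Nr4a probe set between the groups (LRC minus non-LRC, log2, x axis) with its 95% interval from limma, n = 3 arrays per group. Every interval includes 0, and those of Nr4a1 (-1.95 to 1.98) and of Nr4a2 1450750_a_at (-2.28 to 1.44) are the widest.

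For Nr4a1 and the variable Nr4a2 probe sets, the larger variation lay among arrays of the same population. Nr4a1 spanned 2.70 log2 units over the 6 arrays and Nr4a2 on 1450750_a_at 2.71, beside a median span of 0.97 over all probe sets. The steady Nr4a2 pair (0.50 and 0.54) and every Nr4a3 probe set (0.49 to 0.89) spanned less than that median. The gap of replicate 3 to the mean of the other arrays of its group was, for Nr4a1, -2.56 in LRC and -1.56 in non-LRC. For Nr4a2 on 1450750_a_at these gaps were -2.65 and -0.95, and on 1455034_at -1.33 and -1.98. For Nr4a3 on 1421080_at they were -0.51 and -0.49. In all, 6 of 10 Nr4a probe sets had replicate 3 as the lowest array of both groups, which was so for 9.94% of all probe sets; 4 of the 6 report Nr4a2. On the highest-mean probe set of each gene it was so for 3 of 3 Nr4a genes, beside 9.01% of all genes. This summary by replicate 3 was chosen after its values were seen, and it is a description without a test. The labels do not say whether samples that share a number share mice, a sorting day or a hybridization.

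By a fixed measure of likeness, the root-mean-square distance between profiles over the 6 arrays after each was centred on its own mean, the genes nearest to Nr4a1 were Atf3 (0.33), Apip (0.33) and Cpd (0.34), among 5082 genes that varied enough to compare. The median distance was 1.26. Atf3, a stress-induced transcription factor of the ATF/CREB family, was at 7.81, 7.57 and 5.36 in LRC and at 8.09, 7.64 and 5.75 in non-LRC. It thus had the same low arrays as Nr4a1. Of all 45037 probe sets, Nr4a2 1450750_a_at was the 3rd nearest to Nr4a1 (distance 0.30) and 1455034_at the 68th (0.47). The other variable Nr4a2 probe sets were further off, 1450749_a_at at rank 516 (0.65) and 1447863_s_at at rank 1133 (0.74). The steady Nr4a2 pair stood at ranks 26385 and 9272.

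The highest-mean Nr4a2 probe set, 1447863_s_at, was nearest to Gmppb (0.12), Tfpi (0.15) and Thy1 (0.15). On this probe set replicate 2 stood well above replicates 1 and 3 in both groups. The same arrays stood apart in sex-linked genes. Xist, transcribed from the inactive X chromosome, was at 11.58 on LRC replicate 2 and 11.65 on non-LRC replicate 2, and at 3.54 to 5.13 on the other 4 arrays. The Y-linked gene Eif2s3y was at 2.82 and 2.28 on that pair and at 7.86 to 8.74 on the others. The labels do not give the sex of the mice, and its part in the Nr4a2 values was not tested. The genes nearest to Nr4a3 on 1421080_at were A930009L07Rik (0.05), Gpr1 (0.07) and 2310050C09Rik (0.07), all with values of 3.27 or less on every array. Such distances over 6 arrays are descriptions of these arrays.

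Immediate early genes are those switched on by stimuli without new protein synthesis, and a list of 30 others was read beside Nr4a, all of them measured. Fos, Jun and Egr1, their archetypes, were high on every array, at 11.21 to 11.94, 11.97 to 12.52 and 12.04 to 12.38. For 21 of 30 (70%) replicate 3 was the lowest array of both groups, beside 9.01% of all genes. Replicate 1 was lowest in both groups for 2 of the 30 and replicate 2 for 1, beside 11.2% and 19.2% of all genes. The median gap of replicate 3 to the mean of the other arrays was -0.50 in LRC and -0.45 in non-LRC, beside 0.005 and -0.02 over all genes.

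The widest gaps among the 30, averaged over both groups and named here after their values were seen, were those of Egr3, Atf3 and Egr2. Egr3, an early growth response factor, was at 8.52, 8.58 and 4.57 in LRC and at 7.58, 9.12 and 5.21 in non-LRC. Egr2, of the same family, was at 9.24, 8.67 and 6.83 in LRC and at 9.07, 8.85 and 7.69 in non-LRC. In each of these genes, as in Nr4a1, replicate 3 was low in LRC and non-LRC alike. A gap of at least 1 log2 unit in both groups was seen in 4 of the 30 genes and in 0.665% of all genes.

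Measures of sample quality were read beside this pattern. Hybridization controls, transcripts spiked in before hybridization, averaged 11.24 and 11.02 on LRC replicates 1 and 3 and 10.58 to 10.70 on the other 4 arrays. The 3′ minus 5′ signal of Gapdh, a gauge of RNA length, was 3.24 on LRC replicate 3 and 3.40 on non-LRC replicate 3, within the range of 2.72 to 4.16 of the other arrays. That of Actb was -0.61 on LRC replicate 3 and -0.16 on non-LRC replicate 3, against -0.23 to -0.04 on the others. Their part in the Nr4a values was not tested.

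**Figure D3:**
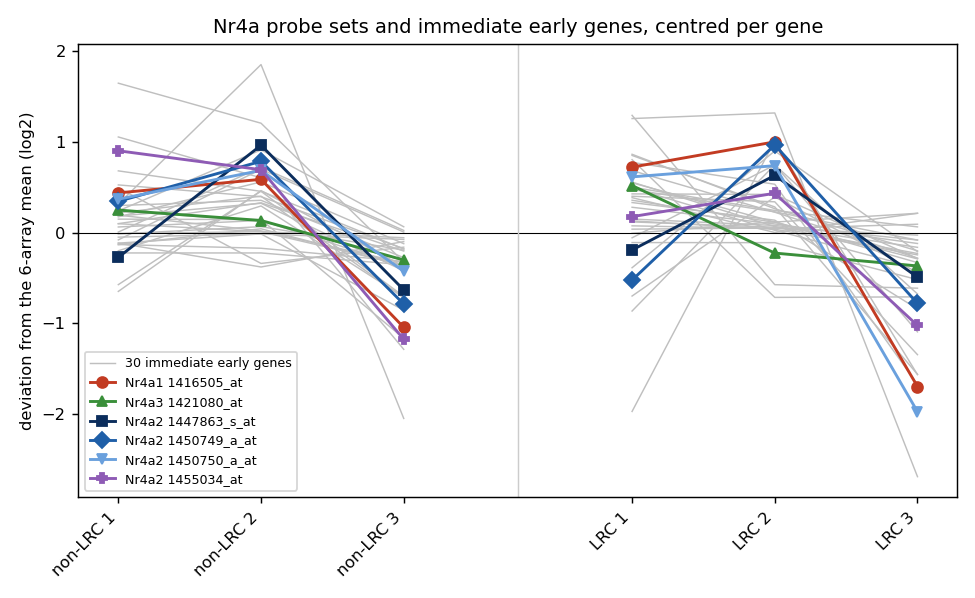
Deviation of log2 expression from each gene's 6-array mean (y axis) on the 6 arrays (x axis) for the 6 Nr4a probe sets with replicate 3 lowest in both groups in colour and the 30 immediate early genes in grey; lines join arrays of 1 group and imply no order. The coloured lines were chosen for that order, and 21 of the 30 grey lines share it.

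**Figure D4:**
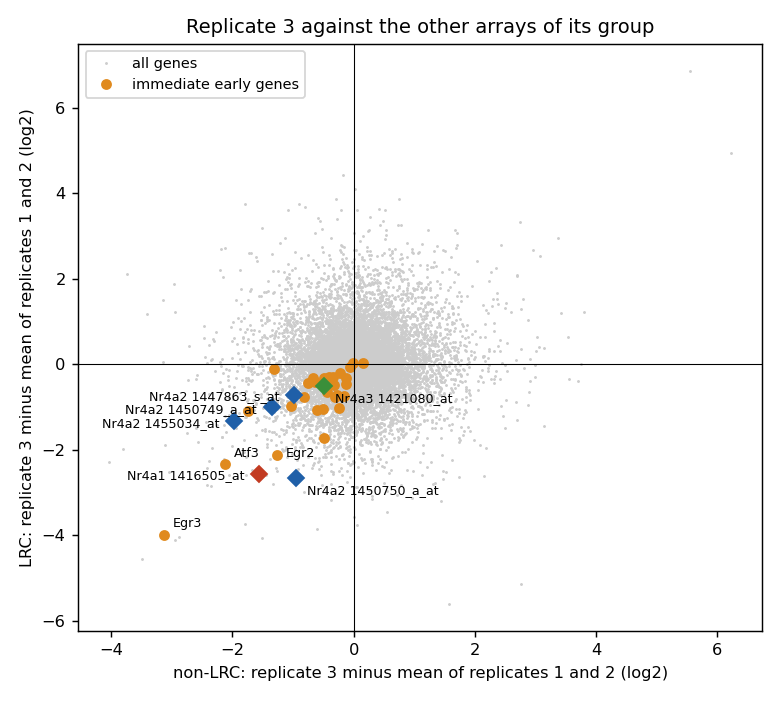
Gap between replicate 3 and the mean of replicates 1 and 2 of its group, in log2 units, for non-LRC (x axis) and LRC (y axis), with 18193 genes in grey, immediate early genes in orange and those 6 Nr4a probe sets as diamonds. Nr4a1 lies at -1.56 and -2.56, near Atf3 and Egr2, and Egr3 lies furthest down among the labelled points.

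Between LRC and non-LRC, 0 of 30 immediate early genes passed in either direction, 17 had a higher and 13 a lower mean in LRC, and the median difference was 0.05 beside 0.03 over all genes. The smallest p was that of Ier2, an immediate early response factor, at 8.70, 8.44 and 8.26 in LRC and 7.97, 7.97 and 7.84 in non-LRC. All its LRC values lay above all its non-LRC values, and the difference was 0.54 (SE 0.19, limma adjusted p = 0.998). Nfkbia, which encodes the NF-kappaB inhibitor IkappaB alpha, was also separated, with a difference of 0.40 (SE 0.20) and its 4 further probe sets shared that sign. Ier5 differed by -0.49 (SE 0.26) and Cd69, a leukocyte activation antigen, by -1.69 (SE 0.90), with overlapping groups. In all, groups were separated for 3 of the 30, all higher in LRC, beside 856 higher and 658 lower of 18193 genes.

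Genes that feed into Nr4a transcription were read next, namely CREB and its coactivators, MEF2 factors with their class IIa histone deacetylases, serum response factors, prostaglandin E receptors and kinases. Of 37 on the list 33 were measured, 0 passed in either direction, 17 had a higher and 16 a lower mean in LRC, and the median difference was 0.004. Ptger3, a prostaglandin E2 receptor, was at 7.84, 8.26 and 8.22 in LRC and at 8.30, 8.69 and 9.35 in non-LRC. Every LRC value lay below every non-LRC value, yet the second probe set of the gene pointed the opposite way and the difference of -0.67 (SE 0.31) did not pass. Ptger4, another prostaglandin E2 receptor, was at 8.52, 8.32 and 9.19 in LRC and at 8.76, 8.60 and 7.97 in non-LRC. It was high in both populations, with overlapping values.

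Crebbp, the CREB-binding acetyltransferase, had all LRC values below all non-LRC values, with a difference of -0.38 (SE 0.20), and 2 of 3 further probe sets shared the sign. Creb1 itself differed by 0.57 (SE 0.35). Cabin1, a repressor of MEF2, differed by -1.20 (SE 0.54): LRC replicates 1 and 3 were at 5.16 and 5.07 and the other 4 arrays at 6.93 to 7.05. Mef2d, one of the factors that Cabin1 restrains, differed by -0.35 (SE 0.24). The kinase genes Camk4, whose LRC values all lay above its non-LRC values, and Rps6ka3 differed by 0.44 (SE 0.28) and -0.95 (SE 0.64), and Ptger1 by 0.57 (SE 0.36). For Camk4, 3 of 4 further probe sets shared the sign. None passed, at a limma adjusted p of 0.998 each. Of the 33 measured genes of this list, 1 was separated higher and 2 lower in LRC, beside 8.28% of all probe sets separated.

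Partners and modifiers of Nr4a proteins, such as the retinoid X receptors and corepressors, had 21 of 26 measured, of which 0 passed. The LRC mean was higher in 10 and lower in 11, with a median difference of -0.03. Pias4, a SUMO ligase, was at 6.53, 6.62 and 6.28 in LRC and at 6.03, 5.77 and 5.92 in non-LRC. The difference was 0.57 (SE 0.19, limma adjusted p = 0.998). Its groups did not overlap, but of 2 further probe sets 1 shared the sign. Akt1, a kinase that phosphorylates Nr4a1, was separated as well, with 0.40 (SE 0.18) and its 3 further probe sets shared that sign. Hipk3 and Park7 differed by 0.56 (SE 0.31) and 0.33 (SE 0.19) and did not pass. Groups were separated for 2 of the 21, both higher in LRC, beside 8.28% of all probe sets.

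Genes reported as Nr4a targets in blood or other tissues had 39 of 40 measured, 0 passed, and 19 had a higher and 20 a lower mean in LRC (median difference -0.01). Cdkn2c, which encodes the cell cycle inhibitor p18 and has been linked to Nr4a2 in HSCs, was at 4.08, 5.20 and 5.28 in LRC and at 5.16, 5.65 and 6.77 in non-LRC. The groups overlapped, with a difference of -1.01 (SE 0.51). Cdkn1c, which encodes the inhibitor p57, was at 8.36, 7.37 and 8.47 in LRC and at 7.34, 7.58 and 7.01 in non-LRC. LRC replicate 2 lay within the non-LRC range and the other LRC values above it, and the difference was 0.76 (SE 0.35, limma adjusted p = 0.998).

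Cebpa, a myeloid factor that Nr4a1 and Nr4a3 are known to restrain in HSCs, was at 2.78, 3.45 and 2.73 in LRC and at 3.87, 3.65 and 2.74 in non-LRC. All values lay below the array medians, so that its state cannot be judged here. Lpin1 differed by -1.10 (SE 0.49), Bcl2l11, which encodes the death factor BIM, by -0.69 (SE 0.33), Crebl2 by 0.74 (SE 0.37), Eno3 by 0.75 (SE 0.41), Tnfsf10, which encodes TRAIL, by 0.56 (SE 0.33) and Txndc5 by 0.86 (SE 0.61). Of these, only Crebl2 had groups that did not overlap, with the same sign on its 1 further probe set, and none passed. On the whole list groups were separated for 2 of 39, both higher in LRC, beside 8.28% of all probe sets.

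The rest of the nuclear receptor superfamily served as a comparison by structure, since these genes share the zinc-finger DNA-binding domain and are mostly not immediate early genes. Of 46 on the list 41 were measured and 0 passed, with 24 higher and 17 lower in mean in LRC and a median difference of 0.05. For 4 of the 41 (9.76%) replicate 3 was lowest in both groups, beside 9.01% of all genes. Their list averages lay at 4.65 to 4.87 over the arrays, against 8.17 to 9.02 for the immediate early list. Signal level and gene class therefore cannot be told apart in this comparison. Nr2f6, an orphan receptor, was at 4.83, 5.50 and 6.41 in LRC and at 7.15, 6.90 and 7.36 in non-LRC. It had every LRC value below every non-LRC value and its 1 further probe set shared the sign, with a difference of -1.56 (SE 0.41, limma adjusted p = 0.998). Thra, a thyroid hormone receptor, differed by 0.47 (SE 0.18) and Nr2e1, near the bottom of the array's range, by -0.44 (SE 0.19), both with separated groups. Of the further probe sets, 1 of 2 shared the sign for Thra and 0 of 1 for Nr2e1. Vdr, the vitamin D receptor, differed by -0.89 (SE 0.34), with overlapping groups. Of the 41 genes, 1 was separated higher and 2 lower in LRC, beside 8.28% of all probe sets separated.

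**Figure D5:**
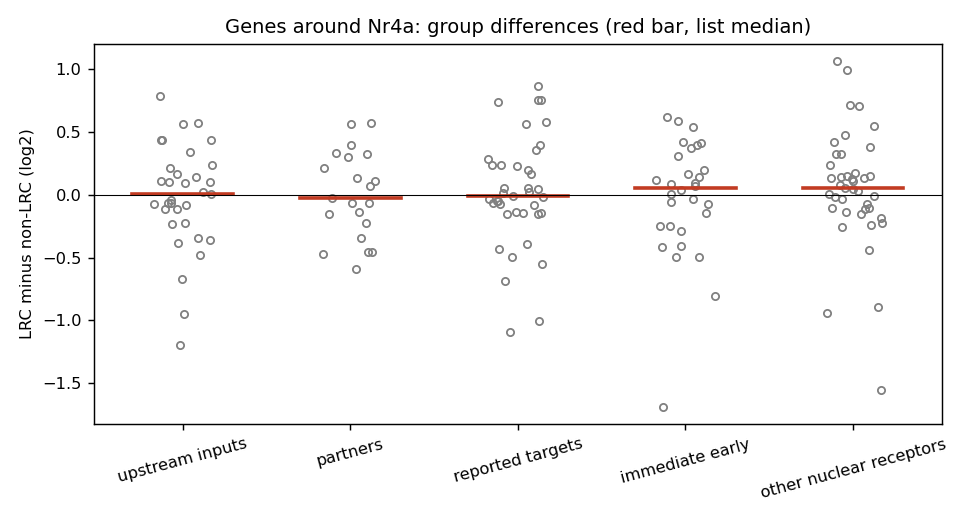
Difference between the groups (LRC minus non-LRC, log2, y axis) for each measured gene of 5 lists around Nr4a (x axis), with the list median as a red bar. The medians lie between -0.03 and 0.05.

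Marker genes were read beside the sort gates, although transcripts alone do not establish what the sorts held. Kit was at 8.999 to 9.127 on all arrays, Procr, the endothelial protein C receptor of HSCs, at 10.28 to 11.10 and Hlf, an HSC transcription factor, at 10.70 to 11.54. Slamf1, which encodes the gate marker CD150, was at 6.24 to 8.83 and the transcription factor Mecom at 9.66 to 10.38. Cd48, a gate-negative marker, was at 2.34 to 3.27, while Cd34, also gate-negative, ranged from 2.52 to 7.43. Some monocytes also express Nr4a1 strongly. Of the monocyte and macrophage markers, Itgam at 2.59 to 3.21, Ccr2 at 2.38 to 2.94 and Cx3cr1 at 3.79 to 4.08 lay below the array medians. Csf1r at 4.03 to 4.47 and Cd14 at 3.73 to 4.36 lay near or below them, and Lyz2 at 7.75 to 9.72 and Cd68 at 4.50 to 6.21 above. T cell markers averaged 3.43 to 3.82 in LRC and 3.52 to 3.69 in non-LRC, and B cell markers 3.73 to 4.03 and 3.72 to 4.13, with Cd79b highest of these at 5.52 to 7.17. Monocyte and macrophage markers averaged 4.45 to 4.69 and 4.40 to 4.62. Neutrophil markers averaged 4.88 to 5.69 in LRC and 5.33 to 7.19 in non-LRC, with non-LRC replicate 1 highest. Among them Mpo, myeloperoxidase, was at 4.03 on LRC replicate 1 and at 7.57 to 9.20 on the other arrays.

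Erythroid markers averaged 3.12 to 4.19 in LRC and 3.10 to 4.39 in non-LRC, megakaryocyte markers 5.22 to 5.30 and 5.05 to 6.27, endothelial markers 4.37 to 5.31 and 4.74 to 5.67, and stromal markers 4.05 to 4.44 and 4.04 to 4.48. Averages hide single members. Stromal Col1a2 was at 6.76 on LRC replicate 2 and 6.74 on non-LRC replicate 2, and at 3.64 to 3.96 on the other arrays. Endothelial Tek ranged from 3.85 to 7.52 and megakaryocyte Gp1bb from 3.39 to 6.94. The erythroid average was lowest on replicate 3 of both groups, and among its 3 measured members of 5 the transcription factor Klf1 was at 6.21, 3.34 and 2.95 in LRC and at 6.76, 4.24 and 2.93 in non-LRC. Its part in the Nr4a values was not tested. Over all 14 lists 0 members passed. In such bulk RNA, fewer cells of a type and less RNA per cell cannot be told apart.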

How the data were processed

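Gene expression was measured in 3 LRC and 3 non-LRC samples, each on 1 mouse Affymetrix-type expression array. Per the labels' protocols, PicoPure-isolated RNA went through 2 amplification rounds (NuGEN WT-Ovation Pico). The authors deposited RMA values (per the submitters' processing notes), read here as log2 expression because of their numerical range. The software and background model are not given in the sources used here. RMA makes array distributions nearly equal, so a change of total RNA cannot be seen.

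Of 45101 probe sets, 64 controls were left out. Of the 45037 tested, 34945 named 1 gene (18193 genes), 932 several and 9160 none; genes were named from the first kind only, through the platform annotation. Columns of other samples numbered 0. The LRC minus non-LRC contrast was fitted without covariates by lmFit and eBayes of limma 3.58.1 (R 4.3.3), with Benjamini-Hochberg adjustment over all probe sets and a threshold of 0.05; the script was tested on simulated data. For lists, the probe set of highest mean stood for a gene. Lists were described by counts and medians, without a set test. Named were all Nr4a probe sets, the 8 list members of smallest p for inputs and reported targets and the 4 of smallest p for the other lists, and the 3 genes nearest to each Nr4a gene among those with an SD of at least 0.5 of its own. Any gene of the marker lists could be named, and some were. Fos, Jun, Egr1, Egr2, Egr3, Ptger4 and Cebpa were named outside that rule, after their values were seen. Xist and Eif2s3y were also named outside it, as sex-linked genes, and Gapdh and Actb as measures of sample quality. The members, lists and tests were chosen with earlier results of these data known. Alternatives were further quantile normalization, median centring, a filter at the 40th percentile of mean signal, each array left out, array weights, trend with robust moderation, a replicate block, the hybridization control level as a covariate, a threshold of 0.1, a 2-fold rule and the mean of a gene's probe sets. Genes without a probe set of a single symbol are not analysed here. Correlations between arrays ran from 0.902 to 0.970, so no array was a copy of another.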

Additional observations from a re-analysis of the deposited data

How the results depend on the processing

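The adjusted count of called probe sets stayed at 0 under all alternatives that use an adjusted p, and with unadjusted p under 0.05 and at least 2-fold it was 774 (318 higher in LRC); no Nr4a probe set was called under any alternative. The sign of the Nr4a differences did not hold, and the cause was not tested. With array weights the LRC minus non-LRC difference was -0.36 for Nr4a1 (1416505_at) and -0.038 for Nr4a2 1433423_at. Adjusting for the level of the hybridization controls gave 0.45 for 1447863_s_at and 0.52 for 1450749_a_at. Leaving out both arrays numbered replicate 3, an alternative chosen after seeing the data, gave 0.15 for 1450750_a_at. For 1433423_at it gave 0.20, with the sign of the main difference of 0.08 kept. Leaving out single arrays gave -0.50 to 0.87 for Nr4a1. For Nr4a2 it gave -0.049 to 0.18 (1433423_at), -0.36 to 0.44 (1447863_s_at), -0.77 to 0.11 (1450749_a_at), -0.89 to 0.47 (1450750_a_at) and -0.94 to 0.17 (1455034_at). For Nr4a3 it gave -0.32 to 0.12 (1421080_at) and -0.26 to 0.013 (1438796_at). Nr4a2 1433422_at and Nr4a3 1421079_at kept their signs under every alternative run. The count of 21 immediate early genes with replicate 3 lowest in both groups was 20 after further quantile normalization, 21 after median centring and 23 with the mean of a gene's probe sets, all chosen after seeing the data. Deviations of same-numbered samples correlated at 0.08, 0.14 and 0.08, and those of differently numbered samples at -0.09 to -0.01. Each sample thus correlated best with its own number. Low correlations over all probe sets cannot decide whether the numbers mark a pairing. Xist was high on replicate 2 of both groups only, at 11.58 in LRC and 11.65 in non-LRC, against 5.13 or less elsewhere. Whether the numbers mark a pairing was not tested, and the main fit did not use one. With the replicate block the Nr4a1 difference was 0.01 (SE 0.29, 95% interval -0.78 to 0.81, limma adjusted p = 0.996), and the block changed no call. The intervals of the variable Nr4a2 probe sets narrowed too, for example to -0.59 to 0.52 for 1447863_s_at and -0.96 to 0.40 for 1455034_at. Those of the steady pair widened, to -0.26 to 0.74 for 1433422_at and -0.57 to 0.73 for 1433423_at. That of Nr4a3 1421079_at also widened, to -0.74 to 0.39. The 3 arrays per group limit the precision, and probe sets near background report little.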

Other observations

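The CRE core TGACG, on either strand, was also counted in the promoter windows of the immediate early genes that the promoter table held, 36 windows of 23 genes. At least 1 core was in 19 of the 36 windows, at least 2 in 9, at least 3 in 1 and at least 4 in 0, beside 17.8%, 3.9%, 0.688% and 0.137% of all windows. Among the 6582 windows at least as rich in G and C as that of Nr4a3, these shares were 28%, 7.73%, 1.64% and 0.38%. The G and C content of the immediate early windows was not compared. By gene, 12 of 23 had a window with at least 1 core, and Jun, Nfkbia and Ier5 were among the 11 with none. These counts are a description of letters in 250 bases.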
